A study of Rattus norvegicus with 16 samples.

Results

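Cells detect double-stranded RNA and other foreign nucleic acids through a small set of sensors, and the mRNA levels of 10 of these genes or of their partners were followed in PCCl3 cells, a differentiated rat thyroid follicular cell line, after silencing of *Pax8* by siRNA. The genes are *Eif2ak2*, *Ddx58*, *Ifih1*, *Dhx58*, *Tlr3*, *Tlr2*, *Tlr4*, *Myd88*, *Gbp2* and *Adar*. All are called sensors below for short, although *Myd88* encodes an adaptor, *Gbp2* a GTPase and *Adar* an editing enzyme. A probe was taken when its RefSeq accession resolved to one of these symbols, and 8 of the 10 genes were found, with 9 of the 41012 probes of the array. No probe was named for *Ifih1* and *Dhx58*, which were not analysed here. The probe of *Ddx58* (A_44_P576954, XM_216380) was named only through the probe list published with the study, which holds probes the study had called on these arrays, so its change is not independent of that choice. The array file lists this gene by an accession only, and the current rat annotation gives it the symbol *Rig1* with *Ddx58* as a synonym.

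Cells in which an siRNA had targeted *Pax8* for 48 hours (si*Pax8* cells) were compared on 8 two-colour Agilent arrays with cells labelled wild type (wt cells) and on another 8 with cells that received a scrambled siRNA (siScramble cells). Both siRNAs were delivered with Lipofectamine at 10 ng/ml, so that an siRNA was present on both sides of the siScramble comparison and on 1 side of the wt comparison. The sources differ on whether wt cells received the lipid alone or no transfection. Every group is the same cell line, kept in medium with TSH, insulin and further hormones. Each comparison had 4 biological replicates, each hybridized in both dye orientations. Slides 1 and 4 held replicates 1 and 4, and slides 2 and 3 held replicates 2 and 3, with the dyes reversed. Values per slide therefore reuse the same RNAs and are not 4 separate repeats. The si*Pax8* RNA of a replicate is drawn as serving both comparisons, whose values are therefore not independent. The log2 of si*Pax8* over control was averaged over each dye swap, and a gene was called at a limma adjusted p below 0.005.

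Double-stranded RNA in the cytoplasm binds PKR, the kinase encoded by *Eif2ak2*, which then phosphorylates the initiation factor eIF2α and slows translation. RIG-I (*Ddx58*), MDA5 (*Ifih1*) and LGP2 (*Dhx58*) are RNA helicases that signal through the mitochondrial adaptor MAVS to interferon regulatory factors, whereas TLR3 recognises double-stranded RNA in endosomes. TLR2 and TLR4 recognise bacterial lipoproteins and lipopolysaccharide and signal through the adaptor MyD88, which TLR3 does not use. ADAR1, the product of *Adar*, deaminates adenosines in double-stranded RNA, and *Gbp2* encodes a guanylate-binding protein, a GTPase induced by interferons. Many of these genes carry interferon-responsive elements in their promoters.

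Promoter windows from RefSeq, running from 250 bases before to 50 bases after the transcription start, were held for 7 of the 10 genes (build GRCr8). They were searched on both strands for the core of the interferon-stimulated response element (ISRE), which is GAAA followed by any 2 bases and again GAAA, and for the gamma-activated site (GAS), TTCNNNGAA. An ISRE core was found in 4 of the 7, those of *Eif2ak2*, *Ifih1*, *Myd88* and *Gbp2*, and it is present in 3.92% of the 33469 promoter windows of the same length. A GAS was found in *Myd88* only, where it overlaps the ISRE core by 3 bases, and it is present in 8.87% of all windows. The windows of *Tlr3*, *Tlr2* and *Tlr4* held neither. That of *Tlr2* (171504508 to 171504807, minus strand) lies inside the annotated gene (171499189 to 171504831). The bases before the 5′ end of that gene were therefore not searched. The sequences of the 3 genes that have both an ISRE core and array values are shown 5′ to 3′ on the strand of the gene, with the matches in capitals, because they let the values below be read beside the elements:
*Eif2ak2*, chr6:21941098-21941153, plus strand, ISRE core at -16 to -7: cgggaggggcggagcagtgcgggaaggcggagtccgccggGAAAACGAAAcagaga
*Gbp2*, chr2:234005656-234005726, plus strand, ISRE core on the opposite strand at -31 to -22: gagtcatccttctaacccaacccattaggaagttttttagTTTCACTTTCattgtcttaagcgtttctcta
*Myd88*, chr8:127956231-127956292, minus strand, GAS at -22 to -14 and ISRE core at -16 to -7: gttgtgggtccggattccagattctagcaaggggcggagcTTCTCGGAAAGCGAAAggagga

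**Figure D1:**
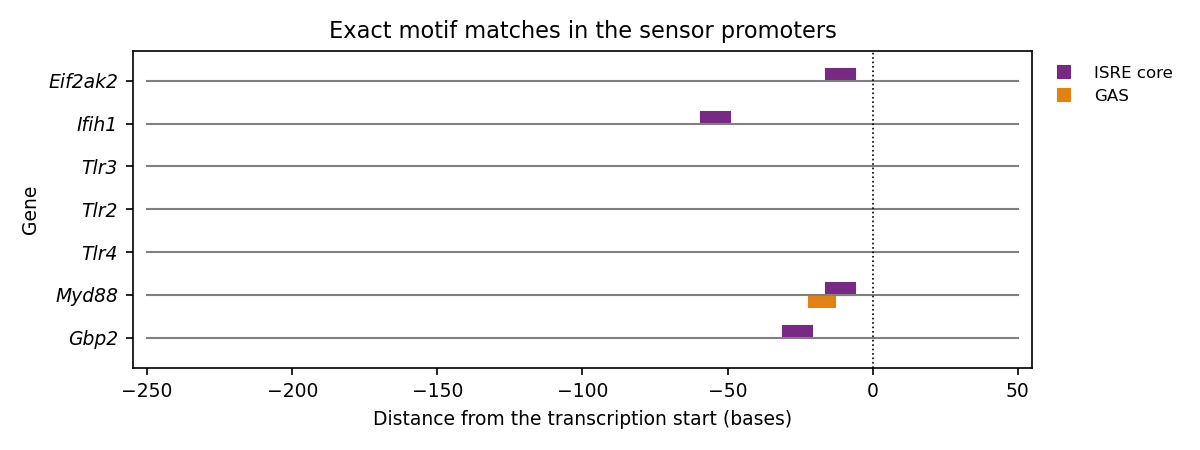
Exact matches to the ISRE core (purple) and the GAS (orange) in the promoter windows of 7 sensor genes, plotted by distance from the transcription start in bases, with each grey line spanning the window. The ISRE cores of *Eif2ak2*, *Ifih1*, *Myd88* and *Gbp2* lie within 59 bases of the start.

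A match is a description of these letters and shows nothing about binding. Of the 3 genes printed, *Eif2ak2* and *Gbp2* were higher in si*Pax8* than in wt cells and *Myd88*, which has both elements, was not called, while *Tlr4*, whose window held neither element, was also higher. No window was at hand for *Ddx58*, *Adar* and *Dhx58*.

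The silenced gene was measured first. *Pax8* (A_43_P12538, NM_031141), a transcription factor of thyroid differentiation, had log2 ratios to wt cells of -0.84, -0.57, -0.59 and -0.26 in replicates 1 to 4 (mean -0.56 ± 0.24 SD, n = 4; limma adjusted p = 0.000496). Relative to siScramble cells the replicates gave -0.58, -0.29, -0.12 and -0.01 (mean -0.25 ± 0.25 SD, n = 4; limma adjusted p = 0.147), which did not pass the threshold. These are mRNA values. For the protein, the paper reports an immunoblot with less Pax8 in si*Pax8* cells than in both controls. The thyroid identity of the cells was visible in all groups, since 11 of 13 thyroid marker genes had a named probe and all 12 of their probes were above background on every wt and siScramble array. Their summed intensity was 195700 to 209000 in wt cells and 124300 to 132800 in si*Pax8* cells on the same arrays, and 154100 to 182100 in siScramble cells against 132700 to 134500 in si*Pax8* cells. Of the 11 genes, *Pax8* among them, 9 were lower and 1 higher than in wt cells, beside 8.19% and 7% of all probes. Against siScramble cells 1 was lower, beside 0.849% of all probes. The median log2 ratio was -0.56 to wt cells, which is the value of *Pax8* itself, and -0.18 to siScramble cells. The part of this fall in the results for the sensors was not tested. Of 20 leukocyte markers 14 had a probe, and those of *Itgam*, *Spi1*, *Aif1*, *Cd8a*, *Coro1a* and *Fcgr3a* were not above background on any array, while *Cd68*, *Cd3d*, *Laptm5* and *Lyz2* were above it on all. The part of these markers in the results below was not tested. The summed intensity of the leukocyte markers, which contains the offset added to every probe, was 1469 to 1532 in wt cells and 1548 to 1621 in si*Pax8* cells on the same arrays, and 1513 to 1558 in siScramble cells against 1533 to 1573 in si*Pax8* cells. *Cd68*, a lysosomal protein of macrophages that other cells also express, was the 1 marker called, at a log2 ratio to wt cells of 0.30 ± 0.12 (SD, n = 4; limma adjusted p = 0.000829).

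Of the 8 genes with a probe, 5 were higher in si*Pax8* than in wt cells, *Gbp2*, *Eif2ak2*, *Ddx58*, *Adar* and *Tlr4*, and none was lower. Over all probes of the array 7% were called higher and 8.19% lower in this comparison. Relative to siScramble cells none of the 8 was called in either direction, where 1.18% of all probes were called higher and 0.849% lower. These shares are 483 and 348 probes, against 408 and 168 with loess alone. At an unadjusted limma p below 0.05, reached by 8.54% of all probes in the higher direction, *Gbp2*, *Ddx58*, *Eif2ak2* and *Tlr4* had higher values. The log2 ratio to wt exceeded that to siScramble cells for 4 genes, *Gbp2*, *Eif2ak2*, *Ddx58* and *Adar*, and was below it for none, beside 1.6% and 1.75% of all probes. With a filter on dim probes the shares called were larger, at 2826 higher and 3283 lower of 22169 probes against wt cells. Against siScramble cells they were 447 and 271 of 21268, and in the difference between the comparisons 635 and 675 of 21231. The median log2 ratio over the 8 genes was 0.48 to wt and 0.10 to siScramble cells, against -0.0036 and -0.0037 over all probes. *Ddx58* is in these counts and medians only through the study's list of called probes, so they are not independent of that choice. These are RNA levels of whole cultures, in which fewer cells of a kind and less RNA per cell cannot be told apart.

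**Figure D2:**
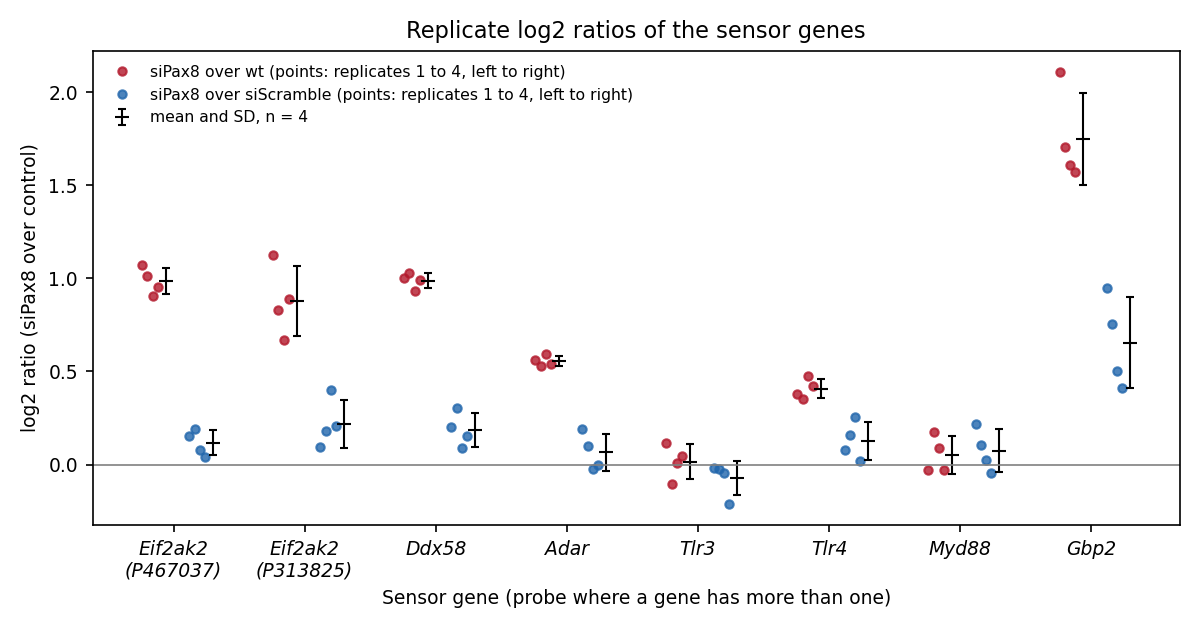
Log2 ratio of si*Pax8* over wt (red) and over siScramble cells (blue) for the 7 sensor genes above background, with 1 point per replicate (dye swap averaged) and bars for the mean ± SD (n = 4). The red points of *Eif2ak2*, *Ddx58*, *Adar*, *Tlr4* and *Gbp2* lie above all blue points of the same probe, and those of *Tlr3* and *Myd88* lie around 0.

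*Eif2ak2* (NM_019335, chromosome 6, 21941147 to 21977115 in GRCr8) was read by 2 probes, both above background in both channels of all 16 arrays. With A_42_P467037 the log2 ratios to wt cells were 1.07, 1.01, 0.91 and 0.95 in replicates 1 to 4, and with A_44_P313825 they were 1.13, 0.83, 0.67 and 0.89. Both probes were thus higher in si*Pax8* cells in all 4 replicates, by 1.98-fold (95% interval 1.88 to 2.09; limma adjusted p = 2.91e-07) and 1.84-fold (95% interval 1.67 to 2.03; limma adjusted p = 1.32e-05). With siScramble cells as control the first probe gave 0.15, 0.19, 0.08 and 0.04 and the second 0.09, 0.18, 0.40 and 0.20. Each probe was above 0 in all 4 replicates, which the 2 probes share, but neither passed the threshold (means 0.12 and 0.22, limma adjusted p = 0.0809 and 0.0375). Both were below 0 on slide 1 (-0.003 and -0.07) and above 0 on slides 2 to 4. The first had 0.21 where Cy5 labelled si*Pax8* RNA and 0.02 where Cy3 did, and the second 0.11 and 0.33. The second probe depended on the dye, with a mean log2 ratio to wt cells of 0.50 where Cy5 labelled si*Pax8* RNA and 1.25 where Cy3 did, whereas the first had 1.08 and 0.89.

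The levels placed siScramble cells near si*Pax8* cells for this kinase. For A_42_P467037 the log2 intensity was 11.00, 10.93, 11.05 and 10.95 in replicates 1 to 4 of wt cells and 11.90, 11.66, 11.84 and 11.83 in siScramble cells. In si*Pax8* cells it was 12.07, 11.94, 11.96 and 11.91 on the arrays with wt cells and 12.05, 11.85, 11.92 and 11.87 on those with siScramble cells. The wt values lay below all others, and the siScramble and si*Pax8* values overlapped. The log2 ratio to wt exceeded that to siScramble cells by 0.87 for this probe (95% interval 0.76 to 0.98; limma adjusted p = 3.20e-06) and by 0.66 for A_44_P313825 (95% interval 0.46 to 0.86; limma adjusted p = 0.00123). As a gene, called only when both probes are, *Eif2ak2* lost the call of this difference in 6 of 19 alternatives, as given by limma. With replicate 2 left out the mean difference was 0.77 (limma adjusted p = 0.0154), and with replicate 4 left out it was 0.75 (limma adjusted p = 0.0144). The others were Agilent's processed signals, normexp without an offset, the slide block and si*Pax8* in Cy5 alone.

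*Ddx58* encodes RIG-I, which binds RNA with a 5′ triphosphate and short double-stranded RNA. Its log2 ratios to wt cells were 1.00, 1.03, 0.93 and 0.99, a mean of 0.99 ± 0.04 (SD, n = 4; limma adjusted p = 1.44e-07) or 1.98-fold (95% interval 1.89 to 2.08). The replicates spanned 0.93 to 1.03, and all 8 single arrays were above 0. Because the probe was taken from the study's list of called probes, this call is not independent of that list. Against siScramble cells the values were 0.20, 0.30, 0.09 and 0.15 (mean 0.19 ± 0.09 SD, n = 4; limma adjusted p = 0.0285), above 0 in each replicate and short of the threshold. The log2 intensity was 9.60, 9.44, 9.50 and 9.53 in wt cells, 10.38, 10.13, 10.33 and 10.33 in siScramble cells, and 10.61, 10.47, 10.43 and 10.52 in si*Pax8* cells on the wt arrays. No siScramble value came within the range of wt cells. The ratio to wt exceeded that to siScramble cells by 0.80 (95% interval 0.70 to 0.91; limma adjusted p = 6.13e-06), and this difference lay between 0.69 and 0.90 within the 4 slides, each of which held 2 arrays of each comparison.

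**Figure D3:**
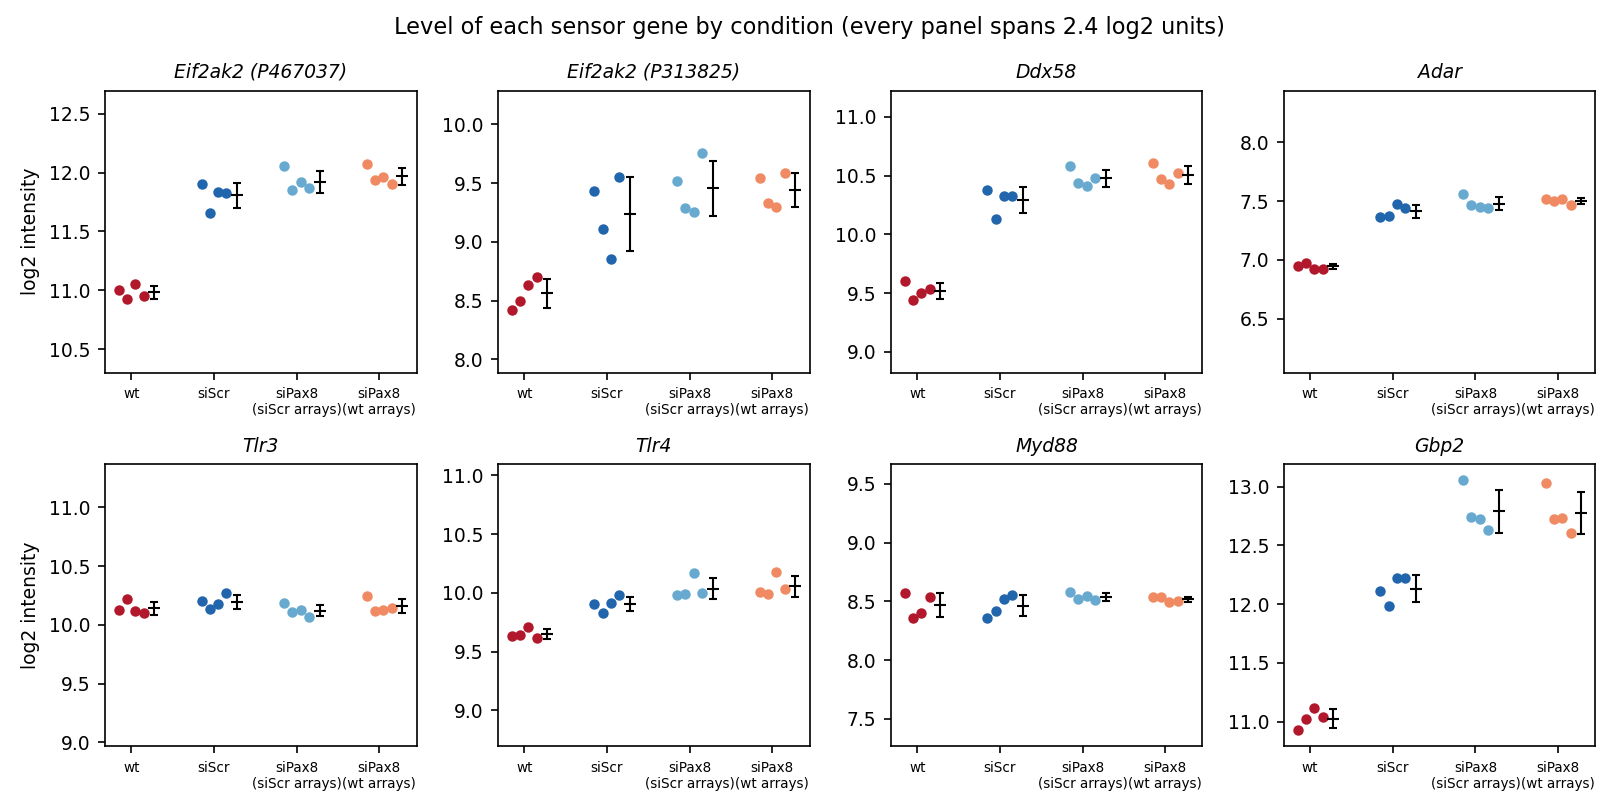
Log2 intensity of each sensor gene in wt, siScramble (siScr) and si*Pax8* cells, the last on both sets of arrays, with 1 point per replicate and bars for the mean ± SD (n = 4). Panels have their own axis of equal length, and the siScramble points of *Eif2ak2*, *Ddx58*, *Adar*, *Tlr4* and *Gbp2* all lie above the wt points.

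*Adar* (A_43_P12473, NM_031006, chromosome 2, 177436076 to 177475969 in GRCr8) encodes the editing enzyme ADAR1, whose longer form is made from an interferon-inducible promoter. Its log2 ratios to wt cells were 0.56, 0.53, 0.59 and 0.54, or 1.47-fold higher in si*Pax8* cells (95% interval 1.41 to 1.54; limma adjusted p = 2.22e-06). Over siScramble cells they were 0.19, 0.10, -0.02 and -0.002, with no common direction (mean 0.07, 95% interval -0.03 to 0.16; limma adjusted p = 0.458). The difference between the comparisons was 0.49 (95% interval 0.38 to 0.60; limma adjusted p = 0.000171). The log2 intensity was 6.93 to 6.97 in wt, 7.37 to 7.47 in siScramble and 7.47 to 7.52 in si*Pax8* cells on the wt arrays. On the siScramble arrays si*Pax8* cells had 7.44 to 7.56, so that siScramble and si*Pax8* values overlapped. The size of its ratio to wt cells moved with the treatment of the background, to 0.92 without an offset and to 1.23 with Agilent's processed signals, while the call was kept in all 20 alternatives. The difference between the comparisons moved likewise, to 0.82 and 1.09, and its call was kept in all 19.

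The Toll-like receptors behaved differently from one another. *Tlr3* (A_44_P1021361, NM_198791) was above background in all channels, and its log2 ratios to wt cells were 0.12, -0.11, 0.01 and 0.04 (mean 0.01, 95% interval -0.07 to 0.10; limma adjusted p = 0.866). The ratios to siScramble cells were -0.02, -0.02, -0.05 and -0.21 (mean -0.07, 95% interval -0.17 to 0.02; limma adjusted p = 0.361). The interval to wt cells ends below those of *Ddx58* and of both probes of *Eif2ak2*.

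*Tlr4* (A_44_P996124, NM_019178), the lipopolysaccharide receptor, had log2 ratios to wt cells of 0.38, 0.35, 0.47 and 0.42, or 1.33-fold higher in si*Pax8* cells (95% interval 1.26 to 1.39; limma adjusted p = 2.16e-05). Over siScramble cells they were 0.08, 0.16, 0.26 and 0.02 (mean 0.13, 95% interval 0.03 to 0.23; limma adjusted p = 0.123). Its log2 intensity was 9.61 to 9.71 in wt, 9.83 to 9.98 in siScramble and 9.99 to 10.18 in si*Pax8* cells on the wt arrays. The wt values lay below all others, while siScramble and si*Pax8* cells nearly met on their shared arrays, at a maximum of 9.979 and a minimum of 9.982. On slide 1 the ratio to siScramble cells was -0.05, and on slides 2 to 4 it was above 0. The difference between the comparisons, 0.28 (95% interval 0.16 to 0.40), fell short of the threshold (limma adjusted p = 0.00708), and within slides it ranged from 0.13 to 0.58. That difference was called in 4 of 19 alternatives, which are those with the replicate block, with a dye term, with the deposited normalized table and at an adjusted p of 0.05.

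*Tlr2* (A_43_P19763, NM_198769) was not well above background in any of the 32 channels, so no fold is given for it. *Myd88* (A_44_P417916, NM_198130) was above background throughout, with log2 ratios to wt cells of -0.03, 0.18, 0.09 and -0.03 (mean 0.05, 95% interval -0.04 to 0.14; limma adjusted p = 0.46) and to siScramble cells of 0.22, 0.11, 0.02 and -0.05 (mean 0.07, 95% interval -0.03 to 0.18; limma adjusted p = 0.441). Neither comparison nor their difference (-0.02, 95% interval -0.17 to 0.12) passed the threshold for this adaptor.

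*Gbp2* (A_44_P1053321, NM_133624, chromosome 2, 234005727 to 234021812 in GRCr8) had the largest ratios of the measured sensors. To wt cells they were 2.11, 1.70, 1.61 and 1.57, a mean of 1.75 ± 0.25 (SD, n = 4; limma adjusted p = 8.93e-07) or 3.36-fold (95% interval 2.98 to 3.79), and its probe ranked 23 of 41012 from the top. To siScramble cells they were 0.95, 0.76, 0.50 and 0.41, or 1.58-fold (95% interval 1.37 to 1.81), with replicate 1 again the highest. All 4 were above 0, and the limma adjusted p of 0.00524 was just above the threshold, at rank 65 from the top. This call depended on the settings, since 9 of 20 alternatives gave it, among them the looser threshold of an adjusted p of 0.05. The log2 ratios were 0.52 to 0.79 over all 20. With a dye term the ratio stayed at 0.66 and only the fit changed. The replicate block, in which the dye-swapped arrays of a replicate form a block, gave an adjusted p of 0.000423 (limma). The correlation within blocks was estimated at -0.115, below 0, so that this fit counts the arrays of a replicate as no less than independent.

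For *Gbp2* the 3 conditions were separate. The log2 intensity was 10.93, 11.02, 11.12 and 11.04 in wt cells, 12.11, 11.98, 12.22 and 12.22 in siScramble cells, and 13.03, 12.73, 12.73 and 12.61 in si*Pax8* cells on the wt arrays (13.06, 12.74, 12.72 and 12.63 on the siScramble arrays). Every siScramble value was above every wt value and below every si*Pax8* value. The ratio to wt exceeded that to siScramble cells by 1.09 (95% interval 0.80 to 1.39; limma adjusted p = 0.000587) and by 0.95 to 1.22 within slides. When replicate 2 was left out this difference was 1.14 (limma adjusted p = 0.00817), and when replicate 3 was left out it was 1.09 (limma adjusted p = 0.00846), both short of the threshold. Of the 4 genes, *Ddx58* and *Adar* kept the call of a difference when replicate 2 was left out.

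**Figure D4:**
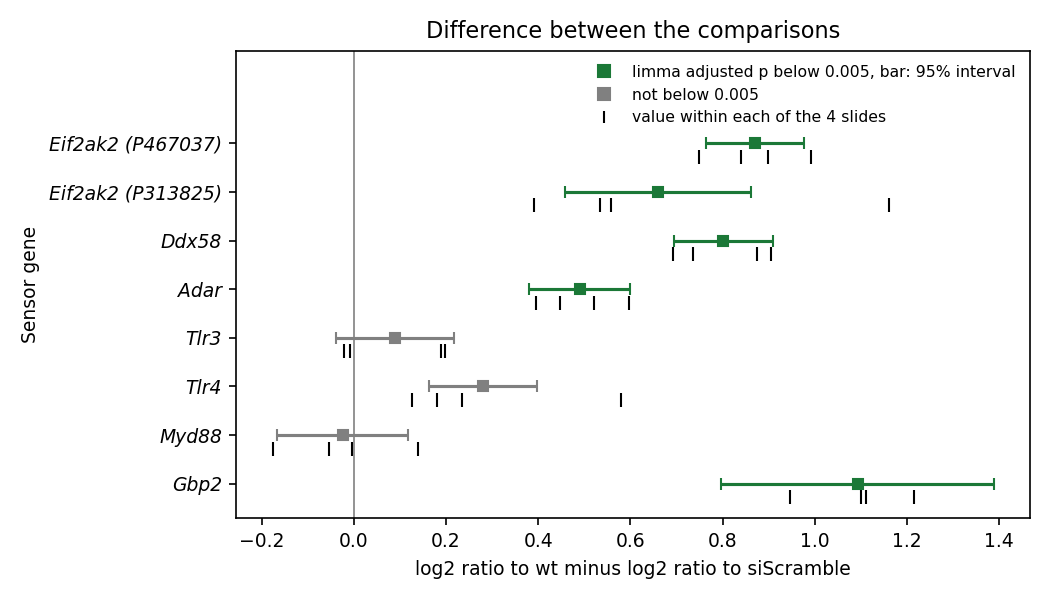
Log2 ratio to wt minus log2 ratio to siScramble cells for each sensor probe above background, with the 95% interval from limma (green, adjusted p below 0.005; grey, not below) and, as ticks under each bar, the value within each of the 4 slides. The values of *Eif2ak2*, *Ddx58*, *Adar*, *Tlr4* and *Gbp2* are above 0 in every slide, and those of *Tlr3* and *Myd88* lie on both sides of 0.

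The levels on both sets of arrays allowed the order of the conditions to be given. For *Eif2ak2*, *Ddx58*, *Adar*, *Tlr4* and *Gbp2* the mean rose from wt over siScramble to si*Pax8* cells. The step from wt to si*Pax8* cells was measured on the same arrays and was called for all 5, and the step from siScramble to si*Pax8* cells was called for none. The step from wt to siScramble cells was not measured on any single array and is given by the difference between the comparisons, called for 4. Between the 2 sets of arrays the mean log2 intensity of si*Pax8* cells differed by 0.0132 to 0.0469 over the 8 probes above background. For *Tlr3* and *Myd88* no step passed the threshold.

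The partners of the sensors were followed with 5 lists of pathway genes (62 of 135 listed genes had a named probe). Against wt cells 15 were called higher and 5 lower, with a median log2 ratio of 0.02. Against siScramble cells 6 were higher and none lower, with a median of -0.006, and in the difference between the comparisons 10 were higher and 1 lower. The shares of all probes called in these comparisons are those given for the sensors. Lists, as well as sensors, were chosen with earlier results of these arrays known.

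**Figure D5:**
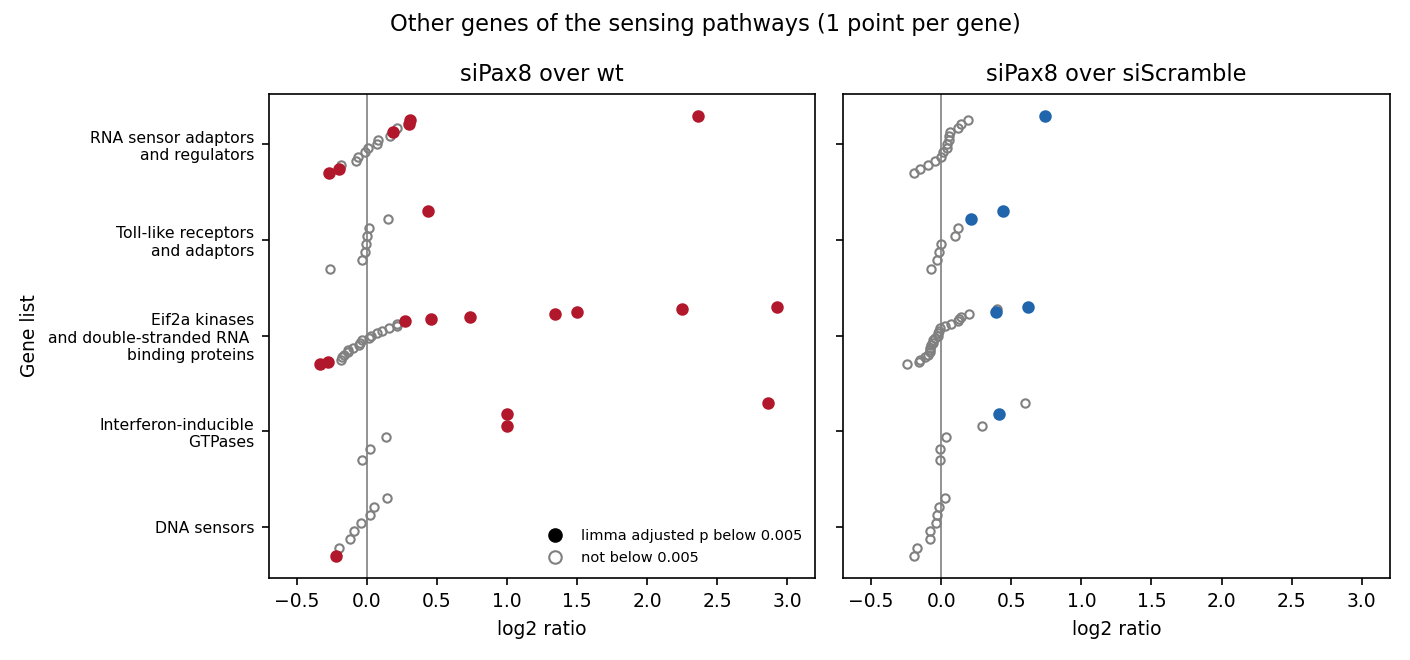
Log2 ratio of si*Pax8* over wt (left) and over siScramble cells (right) for 62 pathway genes in 5 lists, with 1 point per gene, filled when each of its probes had a limma adjusted p below 0.005. Most points lie near 0, and the values above 1.2 on the left belong to *Irf7*, *Mx2* and 4 genes of the list with the Eif2a kinases.

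Among the adaptors and regulators of RNA sensors, 4 of 15 genes were higher and 2 lower than in wt cells. The largest change was that of *Irf7*, a transcription factor that drives interferon genes, with log2 ratios of 2.48, 2.39, 2.30 and 2.29 to wt cells (mean 2.36 ± 0.09 SD, n = 4; limma adjusted p = 8.48e-09). Relative to siScramble cells its 4 values were 0.86, 0.84, 0.64 and 0.63 (mean 0.74 ± 0.12 SD, n = 4; limma adjusted p = 0.000379), the only call of this list there, and the ratios differed by 1.62 (limma adjusted p = 6.91e-07). The other 3 genes called higher against wt cells were *Irf3* (0.31), its relative that acts below MAVS, *Zc3hav1* (0.30), an antiviral RNA-binding protein, and *Tank* (0.19), a scaffold for TBK1. *Fadd* (-0.27), a death-domain adaptor, and *Atg5* (-0.20), an autophagy protein, were lower. *Mavs* itself, the adaptor of RIG-I, had -0.08 to wt and -0.04 to siScramble cells and was called in neither.

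Among the Eif2a kinases and the proteins that bind double-stranded RNA, 7 of 25 genes were higher and 2 lower than in wt cells. The 2′-5′ oligoadenylate synthetases, which are activated by double-stranded RNA, had the largest ratios. *Oas1a* rose by 2.93 ± 0.44 (SD, n = 4; limma adjusted p = 1.04e-06) on the log2 scale, *Oasl2* by 2.25 ± 0.27 (SD, n = 4; limma adjusted p = 3.88e-07) and *Oas1b* by 1.5 ± 0.28 (SD, n = 4; limma adjusted p = 4.33e-06). Against siScramble cells these 3 had log2 ratios of 0.40, 0.62 and 0.20, of which *Oasl2* was called (limma adjusted p = 0.0042). The *Oas1* copies are similar in sequence, so that a probe of one may also read another.

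Downstream of the eIF2α kinases, *Ddit3*, which encodes the stress factor CHOP, had log2 ratios of 1.55, 1.32, 1.18 and 1.34 to wt cells (mean 1.34 ± 0.15 SD, n = 4; limma adjusted p = 4.73e-07) and of 0.50, 0.34, 0.41 and 0.32 to siScramble cells (mean 0.39 ± 0.08 SD, n = 4; limma adjusted p = 0.00155). It was thus called in both, and its ratios differed by 0.95 (limma adjusted p = 2.85e-05). *Adarb1* (-0.33; limma adjusted p = 0.000261), the second RNA-editing adenosine deaminase, was lower than in wt cells, opposite to *Adar*. *Dnajc3* (-0.28; limma adjusted p = 0.000141), a chaperone that inhibits PKR, was lower as well.

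Among 8 further Toll-like receptor genes and adaptors, *Tlr6*, the partner of TLR2, was called higher, with 0.43 ± 0.05 to wt cells and 0.44 ± 0.14 to siScramble cells (SD, n = 4 each; limma adjusted p = 1.59e-05 and 0.00397). These ratios differed by -0.005 (limma adjusted p = 0.981). *Lbp*, the lipopolysaccharide-binding protein, was called against siScramble cells only (0.21 ± 0.02 SD, n = 4; limma adjusted p = 0.00363), with -0.26 ± 0.20 to wt cells (SD, n = 4; limma adjusted p = 0.0168), and its difference of -0.47 was the 1 pathway gene called lower (limma adjusted p = 0.00484). *Cd14*, a co-receptor of TLR4, had 0.15 and 0.12 and was not called.

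Of 6 other interferon-inducible or related GTPases, 3 were higher than in wt cells, as *Gbp2* was. *Irgm* had 1.00 ± 0.07 (SD, n = 4; limma adjusted p = 2.70e-07) and, relative to siScramble cells, 0.42 ± 0.09 (SD, n = 4; limma adjusted p = 0.00132). *Mx2*, above background on 6 of 8 arrays in wt cells and on all in si*Pax8* cells, had 2.86 ± 0.53 (SD, n = 4; limma adjusted p = 3.36e-06). *Mx1* was not above background on any of 8 arrays in wt cells and was higher in si*Pax8* cells by at least 1.97-fold (limma adjusted p = 4.63e-05). This bound sets the mean of si*Pax8* cells against the lowest signal above background on each array, and the means as measured gave a log2 ratio of 1.00. After Aquantile in place of quantile normalization the bound was 2.11-fold. Against siScramble cells neither Mx gene was called. Among 8 sensors of DNA and their cofactors none was called higher in any comparison, and *Polr1d*, a polymerase subunit, was lower than in wt cells (-0.22; limma adjusted p = 0.000777).

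The genes whose replicate values were most like those of each sensor were taken as the highest Pearson correlations over the 8 replicate log2 ratios, among 5014 or 5015 named genes detected in si*Pax8* RNA on each array. With n = 8 values in 2 groups that share si*Pax8* samples, these correlations mostly follow the gap between the groups, and they are a description. *Ddx58* was closest to *Klf6* (r = 0.997), *Irf7* (r = 0.994) and *Bdnf* (r = 0.992). *Eif2ak2* was closest to *Acp3* (r = 0.994), *Ddit3* (r = 0.99) and *Hprt1* (r = 0.99), and *Adar* to *Fhl2* (r = 0.997), *Adm* (r = 0.994) and *Tdrd7* (r = 0.993). Correlations above 0.9 were reached by 4.63% to 5.64% of the genes for these 3 and *Gbp2*.

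*Gbp2* was closest to *Oas1i* (r = 0.997), *Mx2* (r = 0.997) and *Ifi27l2b* (r = 0.996). *Tlr4* was closest to *Nol12* (r = 0.986), *Acrbp* (r = 0.978) and *Anxa1* (r = 0.973). For *Myd88* and *Tlr3*, which had no gap between the comparisons, 0.219% and 0.0598% of the genes had a correlation above 0.9, and the closest were *Tmem17* (r = 0.953), *G4* (r = 0.95) and *Sardh* (r = 0.945) for *Myd88*, and *Ube2a* (r = 0.925), *Trim17* (r = 0.912) and *Psmb6* (r = 0.906) for *Tlr3*. Among the 4 replicates of a single comparison the same pairs had r of 0.955 to 0.994 for *Gbp2*, 0.931 to 0.989 for *Myd88*, 0.868 to 0.999 for *Tlr3*, 0.854 to 0.995 for *Tlr4* and 0.528 to 0.971 for *Ddx58*. For *Eif2ak2* and *Adar* some pairs were not alike there, with r of -0.073 for *Eif2ak2* and *Ddit3* against siScramble cells and of -0.50 for *Adar* and *Adm* against wt cells. The pairs were chosen on these same values, so the r within a comparison is a description and no separate check of the likeness.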

How the data were processed

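Expression arrays of PCCl3 cells were analysed, 8 per comparison. The authors deposited scanner files with raw fluorescence intensities (mean spot signal, median background), Agilent's processed intensities, and a table of normalized log2 ratios, which holds control over si*Pax8*, since its columns, with the sign turned, correlated with the ratios computed here at 0.993 to 0.999. Its column medians lay between -0.000736 and 0.00828. Version 10.1.1.1 of Feature Extraction stands in the headers. The mean intensities were taken through limma 3.58.1 in R 4.3.3 (normexp with an offset of 50, loess within arrays, removal of control spots, quantile normalization of all channels). Between 50.96% and 59.49% of spots per channel were well above background, and the number of arrays limits the precision. Spots of a probe and dye swaps of a replicate were averaged, each comparison was fitted by itself (lmFit, eBayes), with Benjamini-Hochberg adjustment across 41012 probes and the study's threshold of 0.005. The difference between comparisons was tested on the 8 averages as 2 groups.

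Same-numbered dye swaps deviated together (correlations 0.324, 0.118, 0.398 and 0.466 against wt, 0.464, 0.507, 0.511 and 0.328 against siScramble cells), and the design pairs them, though in replicate 2 against wt another number correlated more (0.203). The block correlation fitted without a dye term was -0.124 and -0.115. Across comparisons the correlations were 0.394, 0.169, 0.044 and 0.562, and in replicate 3 another number correlated more (0.395). Pairing of the comparisons was therefore an alternative only.

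Accessions were named through RefSeq (GRCr8), which covered 10768 probes, and *Ddx58* through the study's probe list. A gene's value is the mean over its probes, and a gene is called only if each probe is, in 1 direction. Of each pathway list, at most the 4 called genes with the largest ratios in a direction are named by that rule, and *Mavs* and *Cd14* were added for their role after their values were seen. Members and lists were chosen with earlier results of these data known. The model was tested on simulated data. Alternatives covered background correction, normalization, dyes, replicates, slides, filters and the deposited table. Outlier spots and the looser threshold were added after seeing the data.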

Additional observations from a re-analysis of the deposited data

Results flagged for a closer look

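The log2 ratio to wt cells exceeded that to siScramble cells by a tested difference for 4 genes (limma on 8 averaged ratios, adjusted p below the threshold for each probe). The differences were 0.77 for *Eif2ak2* (mean of its probes), 0.80 for *Ddx58*, 1.09 for *Gbp2* and 0.49 for *Adar*. That of *Adar* was 0.45 to 1.09 over 19 alternatives. Each difference was above 0 within all 4 slides, which reuse the same RNAs with the dyes reversed. The probe of *Ddx58* was named only through the study's list of probes called on these arrays, so its result is not independent of that choice. *Tlr3* had 1 replicate apart from the rest against siScramble cells, replicate 4 at -0.21, with a gap to its nearest neighbour of 0.842 of the range, above Dixon's critical value for 4 values. Such a gap is met by chance in about 1 of 20 groups, and 18 groups of 4 values were examined, *Tlr2* included.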

How the results depend on the processing

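The count of 5 sensors higher than in wt cells was 5 in all 20 alternatives, and for the 5 genes the direction and call were kept in each. Aquantile gave the same ratios as loess alone, and the looser threshold cannot lose a call, so neither is a separate check here. Both are included wherever alternatives are counted. The count of 5 sensors includes *Ddx58*, whose probe came from the study's list of called probes. Against siScramble cells the count was 0 as reported, and 1 gene (*Gbp2*) without background subtraction, with median centring in place of loess, with the replicate block (dye swaps of a replicate as a block), with a dye term, with si*Pax8* in Cy3 alone, with both comparisons in one fit, with a filter on dim probes and with outlier spots left out, and 2 (*Gbp2* and *Ddx58*) at an adjusted p of 0.05. The difference between the comparisons was called for 4 genes as reported, for 2 with Agilent's processed signals and with normexp and an offset of 0 (*Eif2ak2* and *Gbp2* lost), for 5 with the replicate block that pairs the comparisons, and for 2 to 4 with 1 replicate omitted at a time, with 2 without replicate 2. Under Agilent's signals the calls over all probes fell too, to 956 higher and 798 lower against wt cells, 24 and 5 against siScramble cells, and 237 and 202 in the difference, and without offset to 722 and 620, 60 and 24, and 152 and 130. Without replicate 2 they were 1989 and 2050, 82 and 34, and 205 and 210. Sign changes occurred only among uncalled values. The log2 ratio of *Tlr3* to wt cells was -0.058 with si*Pax8* in Cy5 alone, that of *Myd88* was -0.028 in Cy3 alone, and the difference of *Myd88* was 0.044 in Cy5 alone. Leaving out 1 replicate at a time gave -0.0185 to 0.0556 for *Tlr3* and -0.0549 to 0.0513 for the difference of *Myd88*. The cause of these shifts was not tested. Fits with a dye term or slide block take the 8 arrays of a comparison as independent, and so in effect does the replicate block, with correlations of -0.124 (wt) and -0.115 (siScramble). With up to 1 mismatch allowed, an ISRE core was found in 37.7% of all promoter windows and in each of the 7 sensor windows. A core with exactly 1 mismatch was found in 6 of the 7, and *Myd88* had the exact match alone. The pathway lists were computed under the reported processing only.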
